A study of Mus musculus with 6 samples.

Results

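The genes examined here are 10 members of interleukin-6 (IL-6) family signaling and its feedback inhibitors: the receptor genes Il6st, Il6ra, Osmr and Lifr, the IL-1 receptor gene Il1r1, the transcription factor gene Stat3, and the inhibitor genes Socs1, Socs2, Socs3 and Cish. They were chosen by gene symbol for their place in the pathway, with earlier results of these data known, as were the further gene lists below. All 10 of 10 symbols were found among 57180 genes of the count table. RNA of 6 hearts was sequenced, 3 from mice with heat stroke (HS hearts) and 3 from sham mice (sham hearts), with 1 library per heart. All mice were male C57BL/6N, an inbred laboratory strain without an added allele, and were 6 to 8 weeks old. HS mice were heated in a chamber set to 40 °C up to a core temperature of 42 °C and were then moved back to room conditions, while sham mice stayed at 22 to 25 °C. Food and water were withheld from both groups, and humidity was 60 to 65% for both. The sources used here give neither the time from heating to collection of the heart nor litter, day or order of collection, so p-values measure the spread between these hearts.

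Cytokines of the IL-6 family signal through receptor complexes that share the subunit gp130, the product of Il6st. A ligand-specific chain such as the IL-6 receptor, the oncostatin M receptor or the leukemia inhibitory factor receptor joins gp130, and the JAK kinases bound to these chains phosphorylate STAT3, which moves to the nucleus and activates genes. Among these genes are SOCS proteins, which bind the receptors or the kinases and shut the signal off. In the heart, gp130 and STAT3 are known for growth and survival of cardiac muscle cells. CISH and SOCS2 are best known as inhibitors induced by STAT5 downstream of growth hormone and related hormones, and SOCS1 as the inhibitor of interferon signaling.

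Totals per heart ran from 22098487 to 25855876 estimated counts, so that the 3 counts that a reading of 0 still allows corresponded to 0.108 to 0.152 CPM, that is, counts scaled to a common library total by the TMM method. HS heart 3 stood apart from the others, with a mean absolute log2 difference over all tested genes of 0.47 to 0.57 from each other heart, against 0.23 to 0.36 between the rest. The hearts also differed in their marker genes. Summed CPM of 5 atrial muscle markers were 3611, 133 and 2703 in HS hearts 1 to 3, against 86.3 to 104 in sham hearts, and 3 of the 5 were listed at 0 in at least 1 heart (Bmp10 in 5 hearts, Sln in 3, Myl7 in 1). The 8 ventricular muscle markers summed to 41790 to 54480 CPM in HS hearts and 47300 to 48850 CPM in sham hearts, and no ventricular marker was at 0. Neutrophil markers summed to 0.69 to 1.42 CPM in HS hearts and 0.80 to 2.27 CPM in sham hearts, with Ly6g at 0 in all 6 hearts. Adipocyte markers summed to 48.1, 0.987 and 8.69 CPM in HS hearts 1 to 3, against 0.252 to 2.79 CPM in sham hearts, and lymphocyte markers to at most 2.74 CPM in HS hearts and 0.837 CPM in sham hearts.

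No member passed the test between HS and sham hearts. Of the 10 members, 9 had enough counts to be tested, and edgeR's quasi-likelihood test called 0 of them at a Benjamini-Hochberg adjusted p under 0.05, where it called 0.0612% of 14717 genes. At an unadjusted p under 0.05 the members counted 0 of 9 with edgeR, 0 with limma-voom and 1 with DESeq2 (Il1r1), while edgeR placed 13.6% of all genes there. The shares of all genes with limma-voom and DESeq2 were not counted. The thresholds used in the study, an absolute log2 fold change over 1 with an unadjusted p under 0.05, were applied here to the edgeR fit. They held 0 of 9 members and 3.89% of all genes (3.18% higher and 0.707% lower in HS hearts). The study applied them with DESeq2 and reported fewer genes, so these shares are not its own result. For 2 members (Il6st and Il1r1) every HS heart lay above every sham heart, as for 11% of all genes, and the groups lay apart in either direction for 21.9%. The median log2 fold change of the 9 tested members was 0.28, against 0.0097 for all tested genes. Intervals were wide for most members, and changes in level of the sizes they cover are not excluded by these hearts.

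**Figure D1:**
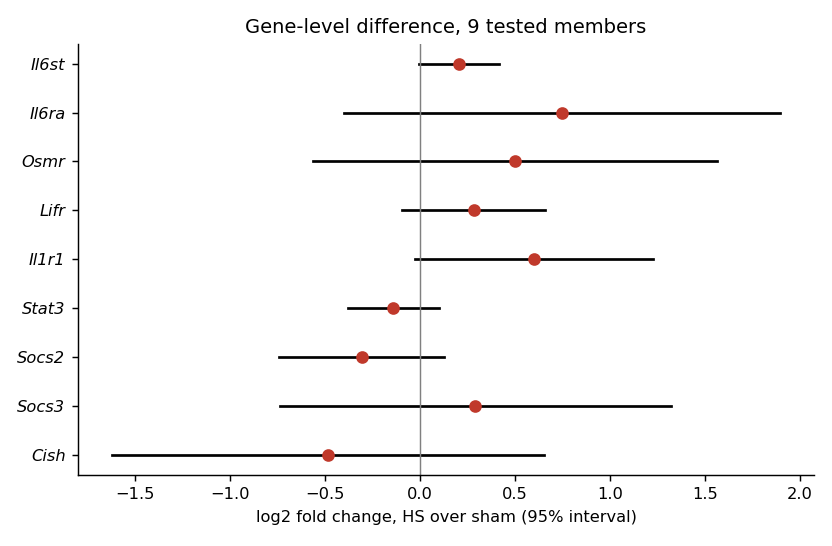
Log2 fold change of HS over sham hearts for the 9 tested members, points with 95% intervals from the edgeR fit, on a linear axis of log2 units. Every interval includes 0, and those of Il6st (-0.0047 to 0.42) and Il1r1 (-0.03 to 1.23) reach it only at their lower ends.

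Il6st (chr13:112464070-112510086, plus strand, mm10), which encodes the shared subunit gp130, had 176, 156 and 166 CPM in HS hearts 1 to 3, against 154, 139 and 139 CPM in sham hearts 1 to 3. The lowest HS heart lay just above the highest sham heart. Its mean was 166 ± 10.3 CPM in HS hearts and 144 ± 8.99 CPM in sham hearts (SD, n = 3 each), a log2 fold change of 0.21 (SE 0.09, edgeR adjusted p = 0.374). The difference did not rest on the heart that stood apart, since the log2 fold change was 0.20 without HS heart 3. Il6st was read as 2 main transcripts, Il6st-201 and Il6st-203, which hold the same 917 codons. Il6st-201 took 52.3 ± 5.77% of the gene's counts in HS hearts and 56.6 ± 4.54% in sham hearts (SD, n = 3 each).

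Il6ra (chr3:89864059-89913196, minus strand) encodes the chain that binds IL-6 itself. It had 3.86, 3.52 and 12.2 CPM in HS hearts 1 to 3, against 3.67, 4.28 and 3.56 CPM in sham hearts 1 to 3. HS heart 3 stood alone, and the other HS hearts lay within or just below the sham range. The log2 fold change was 0.75 (SE 0.49, edgeR adjusted p = 0.511), and it was -0.06 without HS heart 3. In bulk tissue, fewer cells of a type and less RNA per cell cannot be told apart, and this holds for every level given here. An antisense gene, Gm42809, overlaps Il6ra, and whether the counting used the strand is not given in the sources used here.

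Osmr (chr15:6813577-6874969, minus strand) encodes the oncostatin M receptor chain, which in the heart is known from muscle cells and fibroblasts. Its levels were 17.5, 15.6 and 48.2 CPM in HS hearts 1 to 3, against 23.4, 17.1 and 16.6 CPM in sham hearts 1 to 3. Again HS heart 3 was far above the rest, while HS heart 2 was the lowest of all. The log2 fold change was 0.50 (SE 0.44, edgeR adjusted p = 0.619) with all hearts and -0.20 without HS heart 3.

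Lifr (chr15:7090614-7197489, plus strand) encodes the chain used by leukemia inhibitory factor, cardiotrophin-1 and, in part, oncostatin M. It had 60.4, 53.1 and 82.9 CPM in HS hearts 1 to 3, against 56.6, 51.5 and 53.3 CPM in sham hearts 1 to 3. HS hearts 1 and 3 were above the sham hearts, and HS heart 2 was among them. The log2 fold change was 0.28 (SE 0.16, edgeR adjusted p = 0.461), and it was 0.08 without HS heart 3.

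Il1r1 (chr1:40225080-40317257, plus strand) encodes the receptor for IL-1, which signals through MYD88 and NF-kappaB and is not a member of the gp130 family. It had 15.0, 13.4 and 27.6 CPM in HS hearts 1 to 3, against 12.1, 12.5 and 12.2 CPM in sham hearts 1 to 3. All HS hearts were above all sham hearts, HS heart 2 by less than 1 CPM. The mean was 18.6 ± 7.76 CPM in HS hearts and 12.3 ± 0.222 CPM in sham hearts (SD, n = 3 each), so the HS hearts were spread far more widely. The log2 fold change was 0.60 (SE 0.27, edgeR adjusted p = 0.380, unadjusted p = 0.0580). It was 0.21 without HS heart 3. Another listed gene on the same strand, Gm38070, overlaps Il1r1, and strand cannot separate their reads there.

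**Figure D2:**
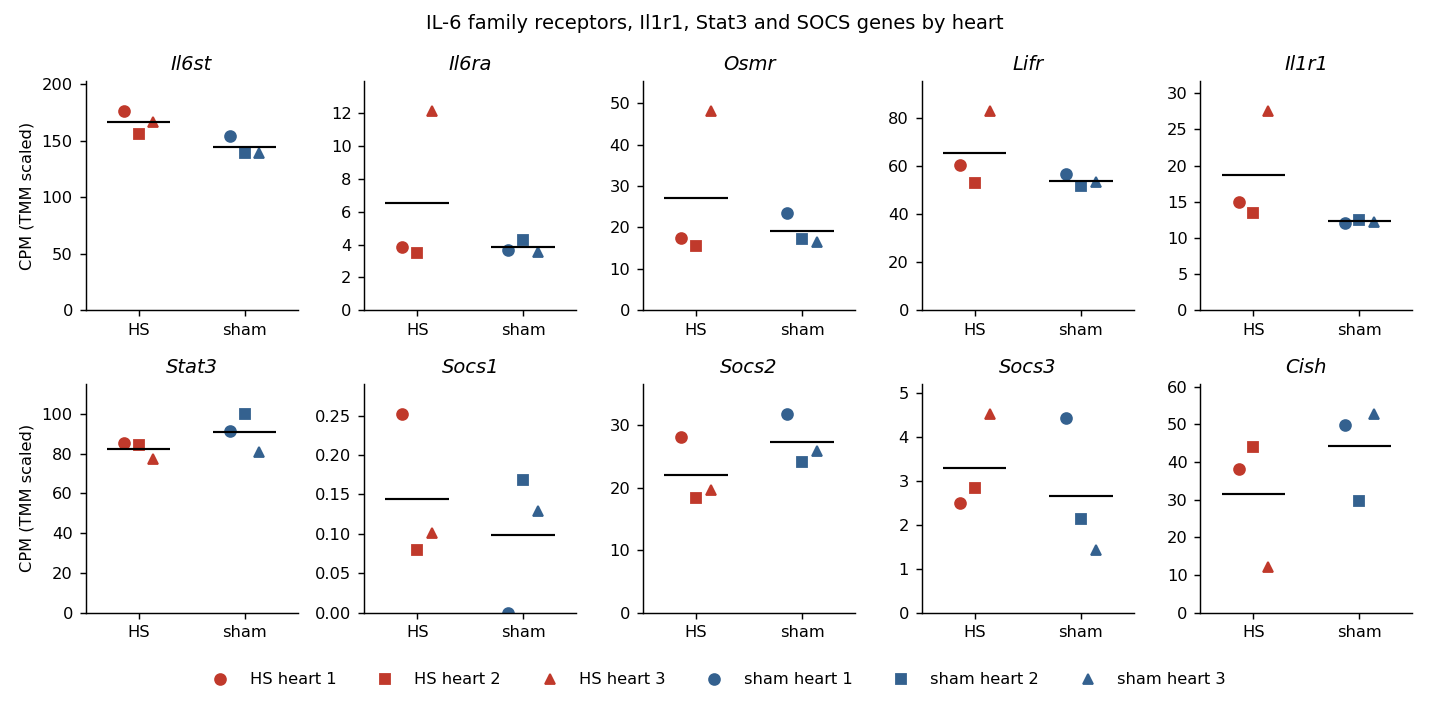
CPM (scaled by TMM, linear axes from 0) of the 10 members in each heart, HS hearts on the left and sham hearts on the right of each panel, marker shape giving the heart number and lines the group means. HS heart 3 is the highest point for Il6ra, Osmr, Lifr, Il1r1 and Socs3 and the lowest for Cish and Stat3.

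A single heart thus carried much of the pattern over the members. HS heart 3 was the highest or lowest of the 6 hearts for 7 of the 9 tested members (5 highest, 2 lowest). Over all tested genes it was at one end for 64.5%, so this count was near that of the whole table. The median deviation of the members from the sham mean was 0.62 on the log2 scale in HS heart 3, against 0.05 in HS heart 1 and -0.02 in HS heart 2. The median over all tested genes was -0.007 in HS heart 3. Marker lists of other cells differed in how far they moved with it. The 8 fibroblast markers, none at 0, summed to 1164, 765 and 1738 CPM in HS hearts 1 to 3, against 636 to 758 CPM in sham hearts, and for 4 of 8 every HS heart lay above every sham heart, as for 11% of all genes. The 8 macrophage markers, none at 0, summed to 132, 130 and 211 CPM in HS hearts 1 to 3, against 134 to 149 CPM in sham hearts, but the list split in HS heart 3. Lyve1, Cd163 and Mrc1 deviated from the sham mean by 1.65, 1.37 and 0.51 on the log2 scale there, and Cd68, Adgre1 and C1qa by -1.28, -0.60 and -0.33, with a list median of -0.02. The 4 smooth muscle markers, none at 0, summed to 501, 207 and 498 CPM in HS hearts 1 to 3, against 122 to 157 CPM in sham hearts, so HS heart 1 was as high as HS heart 3. The 7 endothelial markers, none at 0, summed to 822, 830 and 984 CPM in HS hearts 1 to 3, against 840 to 968 CPM in sham hearts, with a median deviation of 0.08 in HS heart 3. The part of these markers in the receptor levels was not tested. With HS heart 2 as the only HS heart, the log2 fold changes were -0.13 for Il6ra, -0.29 for Osmr and -0.02 for Lifr. In that heart Il6st and Il1r1 deviated from the sham mean by 0.11 and 0.13 on the log2 scale.

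**Figure D3:**
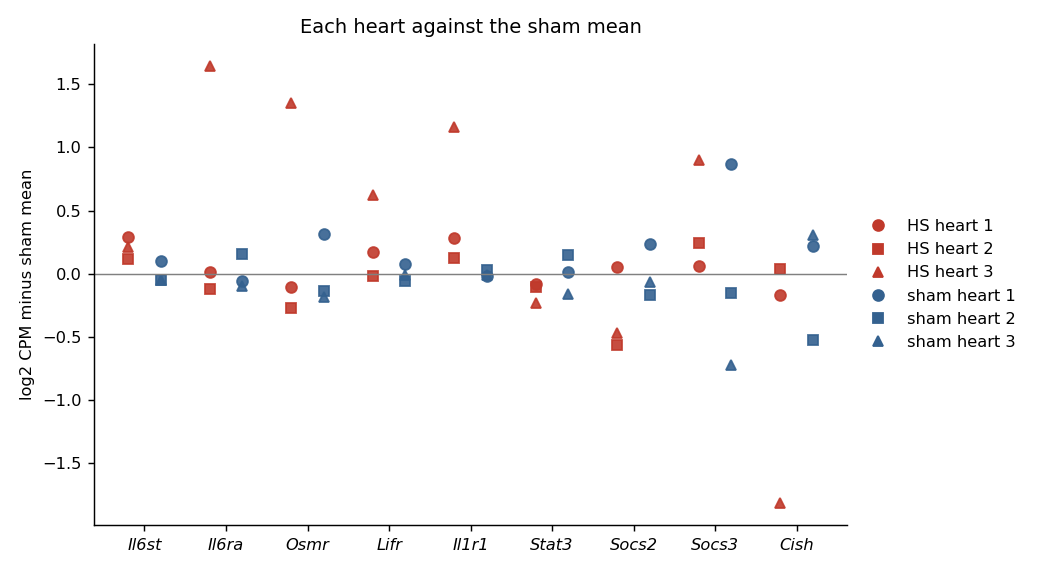
Log2 CPM of each heart minus the mean of the sham hearts (vertical axis, log2 units) for the 9 tested members, HS hearts left and sham hearts right at each gene. HS heart 3 (triangles on the left) deviates upward for the receptor genes and Socs3 and by -1.82 for Cish, while HS hearts 1 and 2 stay close to 0 for most genes.

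Stat3 (chr11:100885098-100939540, minus strand) had 85.5, 84.1 and 77.1 CPM in HS hearts 1 to 3, against 91.3, 100.1 and 80.7 CPM in sham hearts 1 to 3. The groups overlapped within a narrow range. The mean was 82.2 ± 4.52 CPM in HS hearts and 90.7 ± 9.70 CPM in sham hearts (SD, n = 3 each), with a log2 fold change of -0.14 (95% interval -0.38 to 0.10, edgeR adjusted p = 0.550). After that of Il6st it was the narrowest interval of the members.

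Below the gene level, the deposited counts separate the forms of STAT3. Stat3-203 encodes the full form of 770 codons, and Stat3-202 encodes a shorter form of 722 codons, known as STAT3 beta, which lacks the carboxy-terminal transactivation domain. Stat3-202 leaves out the first 50 bases of exon 23 of 24 (chr11:100889541-100889590, GRCm38, minus strand). The joined sequences on either side are shown because this stretch is what tells the coding regions of both transcripts apart, and capitals mark the bases that Stat3-202 lacks.
Stat3-203: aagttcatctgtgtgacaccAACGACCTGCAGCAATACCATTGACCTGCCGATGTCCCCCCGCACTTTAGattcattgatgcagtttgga
Stat3-202: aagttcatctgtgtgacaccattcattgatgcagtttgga

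Stat3-202 was lower in every HS heart than in any sham heart, with 121, 196 and 134 estimated counts in HS hearts 1 to 3, against 301, 265 and 285 in sham hearts 1 to 3. Its share of Stat3 counts was 5.09, 9.19 and 8.85% in HS hearts 1 to 3, against 13.1, 11.1 and 15.2% in sham hearts 1 to 3. The mean share was 7.71 ± 2.27% in HS hearts and 13.1 ± 2.02% in sham hearts (SD, n = 3 each; two-sided exact permutation p = 0.1, the smallest that 3 against 3 hearts allow). The transcript's log2 fold change was -0.91 (SE 0.23, edgeR unadjusted p = 0.00606, adjusted p = 0.334 over 30933 transcripts), so it did not pass the adjusted test. Of all transcripts, 0.0226% were called at an adjusted p under 0.05 and 9.6% were at an unadjusted p under 0.05, while those lower in HS hearts at an unadjusted p under 0.05 were 3.88%. The groups lay apart for 19% of all transcripts. DESeq2 gave it an adjusted p of 0.0480, in a fit that called 624 transcripts against 7 with edgeR. Leaving out each heart in turn gave log2 fold changes of -1.09 to -0.71. Stat3-202 was singled out after its values were seen. It also runs 1712 bases further at its end than Stat3-203, where the gene meets the end of Stat5a on the other strand, so its count may include reads of that stretch as well as of the junction, and reads over the junction were not examined here. Stat3-203 took 87.8 ± 2.67% of the counts in HS hearts and 83.6 ± 1.46% in sham hearts (SD, n = 3 each), with a log2 fold change of -0.08 (edgeR adjusted p = 0.877).

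**Figure D4:**
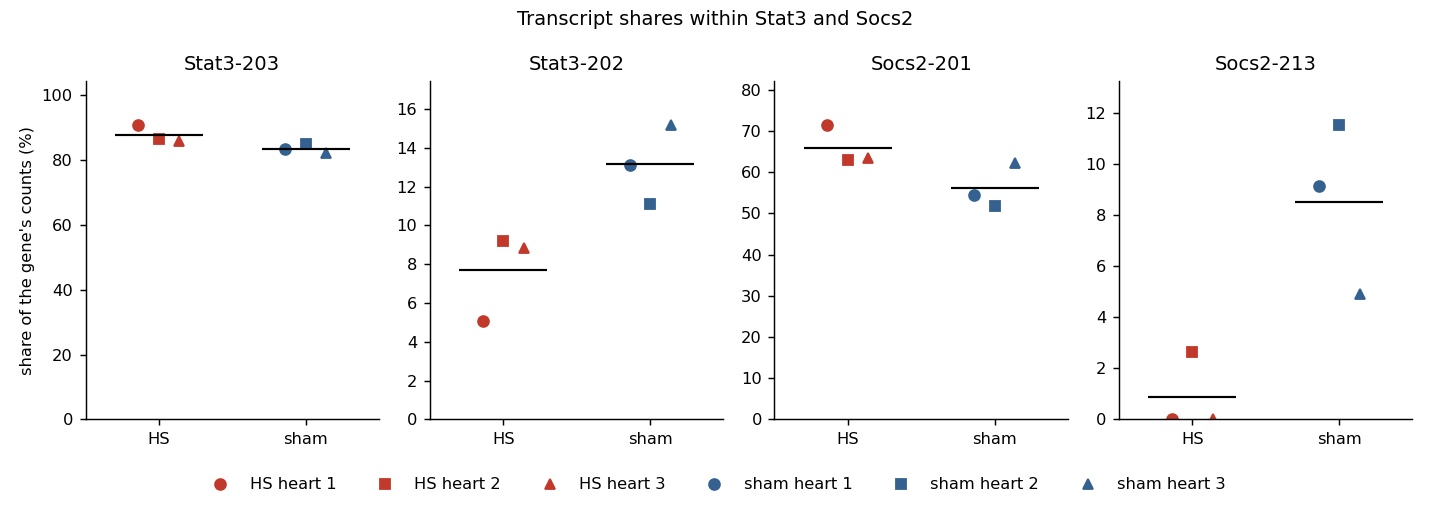
Share of the gene's estimated counts (percent, linear axes from 0) held by Stat3-203, Stat3-202, Socs2-201 and Socs2-213 in each heart, HS hearts left and sham hearts right, lines at the group means. Stat3-202 holds 5.09 to 9.19% in HS hearts and 11.1 to 15.2% in sham hearts, and Socs2-213 is at 0 in HS hearts 1 and 3.

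Socs3 (chr11:117966079-117970047, minus strand), the main inhibitor of gp130 signaling, had 2.49, 2.84 and 4.52 CPM in HS hearts 1 to 3, against 4.43, 2.14 and 1.42 CPM in sham hearts 1 to 3. These levels came from 69, 72 and 89 counts in HS hearts 1 to 3, against 111, 51 and 33 counts in sham hearts 1 to 3. Sham heart 1 was nearly as high as HS heart 3, and HS hearts 1 and 2 lay inside the sham range. The log2 fold change was 0.29 (95% interval -0.74 to 1.32, edgeR adjusted p = 0.780). It was -0.004 without HS heart 3, -0.01 without sham heart 3 and 0.87 without sham heart 1 (unadjusted p = 0.0547). Sham heart 1 was also the highest sham heart for Junb, Myc and Il1b, the last with 32 counts against 3 and 5 in sham hearts 2 and 3. This did not hold for every tested STAT3 target listed below. Sham heart 3 was the highest sham heart for Cebpb, Cebpd, Mcl1, Bcl2l1 and Ccnd1, sham heart 2 for Lcn2 and Bcl6, and sham heart 1 for the rest. The share of all genes with sham heart 1 as the highest sham heart was not counted. All Socs3 counts were assigned to Socs3-201, of 225 codons.

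Socs1 (chr16:10782240-10785536, minus strand) was close to the limit of detection and was not tested. It had 7, 2 and 2 counts in HS hearts 1 to 3, against 0, 4 and 3 counts in sham hearts 1 to 3. These counts do not separate the groups at this depth.

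Cish (chr9:107296026-107302784, plus strand), a target of STAT5, had 38.0, 44.0 and 12.1 CPM in HS hearts 1 to 3, against 49.8, 29.7 and 52.9 CPM in sham hearts 1 to 3. HS heart 3 was far below the other hearts, and HS hearts 1 and 2 were inside the sham range. The mean was 31.4 ± 17.0 CPM in HS hearts and 44.1 ± 12.6 CPM in sham hearts (SD, n = 3 each), with a log2 fold change of -0.49 (SE 0.47, edgeR adjusted p = 0.650). Without HS heart 3 it was -0.11. Cish-201, of 257 codons, held 51.4 ± 6.53% of the counts in HS hearts and 59.3 ± 2.67% in sham hearts (SD, n = 3 each), and its log2 fold change was -0.65 (edgeR adjusted p = 0.752). The antisense gene Gm17041 and the pseudogene Gm17040 overlap Cish, and reads from them cannot be told apart from those of Cish without the strand.

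Socs2 (chr10:95385362-95417180, minus strand), which limits growth hormone signaling, had 28.0, 18.3 and 19.6 CPM in HS hearts 1 to 3, against 31.8, 24.1 and 25.8 CPM in sham hearts 1 to 3. HS hearts 2 and 3 were below all sham hearts, and HS heart 1 was within their range. The log2 fold change was -0.31 (95% interval -0.74 to 0.13, edgeR adjusted p = 0.484). In contrast to Cish it did not rest on HS heart 3 alone, since it was -0.23 without that heart. It still varied with the hearts kept, from -0.53 to -0.19 leaving out each heart in turn. HS hearts 1 to 3 deviated from the sham mean by 0.05, -0.56 and -0.47 on the log2 scale.

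Within Socs2, 2 transcripts with the main coding region had few or no counts in HS hearts. Socs2-201 and Socs2-213 hold the same 198 codons and differ before the start of the coding region. Socs2-213 had 0, 12.2 and 0 estimated counts in HS hearts 1 to 3, against 73.0, 66.3 and 29.4 in sham hearts 1 to 3. Every HS heart was below every sham heart, and the share of Socs2 counts was 0.874 ± 1.51% in HS hearts and 8.52 ± 3.36% in sham hearts (SD, n = 3 each; two-sided exact permutation p = 0.1). Its unadjusted p in edgeR was 0.0261 and its adjusted p 0.461. The fold is not given because HS hearts 1 and 3 were at 0. Of all transcripts, the groups lay apart for 19%, and 3.88% were lower in HS hearts at an unadjusted edgeR p under 0.05. For Socs2-214, also with the same codons, the groups overlapped. It had 0, 18.4 and 0 estimated counts in HS hearts 1 to 3, against 46.2, 44.9 and 8.55 in sham hearts 1 to 3. Socs2-201 had a log2 fold change of -0.07 and took 65.9 ± 4.77% of the counts in HS hearts and 56.3 ± 5.42% in sham hearts (SD, n = 3 each). Socs2-213 and Socs2-214 were chosen for display after their values were seen, and a 0 can come from the way the authors' program divided shared reads.

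The share of the most counted transcript was compared for the 8 members with at least 2 transcripts with counts. For 3 of the 8 (Stat3, Socs2 and Osmr) the groups lay apart, with exact permutation p = 0.1 and an adjusted p of 0.267 over the 8. Among all 11959 such genes, 13.6% lay apart. Osmr-201, of 971 codons, took 93.0 ± 0.884% of Osmr counts in HS hearts and 95.0 ± 0.854% in sham hearts (SD, n = 3 each). The widest spread was in Il1r1, whose transcripts Il1r1-201 and Il1r1-202 code for 576 and 573 codons. Il1r1-201 took 45.0, 63.9 and 53.7% of its counts in HS hearts 1 to 3, against 25.7, 73.1 and 68.4% in sham hearts 1 to 3. Il6ra-202, Lifr-203 and Il6st-201 kept overlapping shares, with exact permutation p from 0.2 to 0.7.

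STAT proteins bind the motif TTCNNNGAA, which reads the same on both strands. Among 300-base windows around RefSeq start sites (GRCm38.p6, 250 bases before and 50 after), 9 of the 10 members had at least 1 window, and 2 of these 9, Cish and Socs3, held the motif. It occurred for 9.55% of 27025 genes. Of the other inhibitor genes, Socs1 had a window without the motif, and Socs2 had no window to search. The windows around the matches in Cish and Socs3 are shown because both genes encode feedback inhibitors, with the motif in capitals. The Cish stretch lies at chr9:107296619-107296678 on the plus strand, with motifs beginning at bases 1 and 12 of the RefSeq transcript. The Socs3 stretch lies at chr11:117969472-117969560 on the minus strand, with the motif beginning at base -154 from the start site. A match is a description of the letters and not a measured site.
Cish: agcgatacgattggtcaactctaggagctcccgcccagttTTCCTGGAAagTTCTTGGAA
Socs3: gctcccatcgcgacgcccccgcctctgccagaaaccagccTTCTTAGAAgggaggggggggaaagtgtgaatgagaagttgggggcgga

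To compare levels between genes, CPM were divided by transcript length in kilobases. On this scale Il6st was the highest member, with 25.9 ± 1.52 CPM per kilobase in HS hearts and 22.9 ± 1.08 in sham hearts (SD, n = 3 each, as for the following levels). Stat3 followed with 19.95 ± 0.426 CPM per kilobase in HS hearts and 20.7 ± 2.48 in sham hearts. Cish had 10.3 ± 5.51 CPM per kilobase in HS hearts and 14.9 ± 4.19 in sham hearts. The signal-transducing subunit and STAT3 were thus at the top of the order in both groups. Socs2 had 9.37 ± 1.94 CPM per kilobase in HS hearts and 11.5 ± 1.62 in sham hearts. Lifr had 7.11 ± 1.73 CPM per kilobase in HS hearts and 5.87 ± 0.255 in sham hearts. Osmr had 5.93 ± 4.11 CPM per kilobase in HS hearts and 3.85 ± 0.638 in sham hearts. These members formed the middle of the order. Il1r1 had 3.50 ± 1.47 CPM per kilobase in HS hearts and 2.30 ± 0.0837 in sham hearts. Socs3 had 1.29 ± 0.426 CPM per kilobase in HS hearts and 1.04 ± 0.615 in sham hearts. Il6ra had 0.851 ± 0.529 CPM per kilobase in HS hearts and 0.556 ± 0.0769 in sham hearts. Socs1 was last in both groups, with 0.0519 ± 0.0339 CPM per kilobase in HS hearts and 0.0355 ± 0.0316 in sham hearts. The order of means was the same in both groups. Among HS hearts, neighbours whose ranges overlapped were Cish and Socs2, Socs2 and Lifr, Lifr and Osmr, Osmr and Il1r1, and Socs3 and Il6ra. Among sham hearts they were Il6st and Stat3, Cish and Socs2, and Socs3 and Il6ra. In sham hearts Il6st stood at percentile 88.5 of 14524 genes on this scale and Il6ra at percentile 16.3.

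Most ligands of the family had few counts. Of 10 ligand genes 4 were tested, and 0 were called at an adjusted p under 0.05 with edgeR. Il6 had 0, 0 and 2 counts in HS hearts 1 to 3, against 9, 0 and 1 in sham hearts 1 to 3. Il11 had 0, 2 and 5 counts in HS hearts 1 to 3, against 2, 0 and 3 in sham hearts 1 to 3. Osm, which encodes oncostatin M, had 1, 9 and 0 counts in HS hearts 1 to 3, against 0, 0 and 6 in sham hearts 1 to 3. These ligands stayed at or near the limit of 3 counts in most hearts of both groups. Lif had 12, 3 and 1 counts in HS hearts 1 to 3, against 15, 12 and 5 in sham hearts 1 to 3. Ctf1, which encodes cardiotrophin-1, had 55, 43 and 22 counts in HS hearts 1 to 3, against 63, 34 and 55 in sham hearts 1 to 3. Clcf1 had 59, 33 and 24 counts in HS hearts 1 to 3, against 26, 30 and 28 in sham hearts 1 to 3. The groups overlapped for all of these. Ctf2, Ebi3 and Il27 had at most 9 counts in any heart, and Il27 had 0 in every sham heart. Cntf, which encodes ciliary neurotrophic factor, was the exception in size, with 54, 9 and 44 counts in HS hearts 1 to 3, against 8, 11 and 5 in sham hearts 1 to 3. It was high in HS hearts 1 and 3, the hearts with high atrial marker sums, and within the sham range in HS heart 2; the part of the atrial markers was not tested. Its log2 fold change was 2.16 (SE 0.69, edgeR unadjusted p = 0.0156, adjusted p = 0.295), and it shares its position with Zfp91 on the same strand, so its counts are uncertain.

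Among the other receptors of the family, 3 of 3 were tested and 0 were at an unadjusted p under 0.05. Cntfr, the receptor chain for ciliary neurotrophic factor, had 1.80, 0.395 and 5.19 CPM in HS hearts 1 to 3, against 0.837, 0.756 and 0.730 CPM in sham hearts 1 to 3. As for Cntf, HS hearts 1 and 3 were above and HS heart 2 was not. Il11ra1, the IL-11 receptor chain, had 26.4, 23.9 and 38.3 CPM in HS hearts 1 to 3, against 26.8, 25.4 and 25.1 CPM in sham hearts 1 to 3, with HS heart 3 alone above. Il27ra had a log2 fold change of -0.41 (edgeR adjusted p = 0.511).

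Of the 4 JAK kinases, 0 were called by edgeR at an adjusted p under 0.05, and 1 in each direction was at an unadjusted p under 0.05, beside 8.83% of all genes higher and 4.76% lower in HS hearts. Jak2, which serves gp130 and the growth hormone receptor, had 30.3, 32.03 and 33.6 CPM in HS hearts 1 to 3, against 28.0, 28.5 and 25.4 CPM in sham hearts 1 to 3, with all HS hearts above. Its log2 fold change was 0.23 (edgeR adjusted p = 0.346). Jak3, the kinase of the common gamma chain, had 9.92, 9.48 and 8.39 CPM in HS hearts 1 to 3, against 13.6, 13.4 and 10.5 CPM in sham hearts 1 to 3, with all HS hearts below. Its log2 fold change was -0.43 (edgeR adjusted p = 0.303). Over all genes, the HS hearts lay all above for 11% and all below for 10.9%. Jak1, the main kinase of gp130, had a log2 fold change of -0.08 and Tyk2 of -0.23 (edgeR adjusted p = 0.717 and 0.510).

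Of 5 other STAT genes 4 were tested, and 0 were at an unadjusted p under 0.05 in edgeR. Their log2 fold changes included 0.10 for Stat5b, 0.06 for Stat6 and 0.07 for Stat2, the last of which changed sign when scaled by library size alone. Stat5a had 13.6, 12.2 and 5.39 CPM in HS hearts 1 to 3, against 9.93, 11.6 and 11.1 CPM in sham hearts 1 to 3, with HS heart 3 lowest, as for Cish. Its log2 fold change was -0.06 (edgeR adjusted p = 0.941), and it was 0.25 without HS heart 3. All 12 other SOCS, PIAS and phosphatase genes were tested, with 0 at an unadjusted p under 0.05 and a median log2 fold change of 0.01. The log2 fold changes were -0.15 for Ptpn2, 0.11 for Pias2, 0.09 for Socs6 and -0.10 for Ptpn1, with edgeR adjusted p from 0.628 to 0.713. Of the 7 genes of the growth hormone and STAT5 axis 5 were tested, with 0 at an unadjusted p under 0.05. Igf1 had 21.2, 10.7 and 15.9 CPM in HS hearts 1 to 3, against 11.2, 11.5 and 10.7 CPM in sham hearts 1 to 3 (log2 fold change 0.52, edgeR adjusted p = 0.379), so HS hearts 1 and 3 were above and HS heart 2 was within the sham range. The log2 fold changes were -0.64 for Igfals, 0.77 for Igfbp3 and -0.10 for Ghr.

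Of 22 genes listed as STAT3 targets 21 were tested, and edgeR called 0 at an adjusted p under 0.05. At an unadjusted p under 0.05, 4 were higher in HS hearts and 2 were lower, beside 8.83% of all genes higher and 4.76% lower. The median log2 fold change was 0.43, and the median deviation from the sham mean was -0.01, 0.14 and 0.87 on the log2 scale in HS hearts 1 to 3, so HS heart 3 stood apart here too. Fos, an immediate early gene that STAT3 shares with many other factors, had 16.0, 34.4 and 26.0 CPM in HS hearts 1 to 3, against 5.42, 1.18 and 1.12 CPM in sham hearts 1 to 3. All HS hearts were above all sham hearts, with a log2 fold change of 3.29 (SE 0.66, edgeR adjusted p = 0.209). Ccnd1, which encodes cyclin D1, had 25.8, 39.6 and 28.9 CPM in HS hearts 1 to 3, against 43.1, 47.0 and 49.2 CPM in sham hearts 1 to 3 (log2 fold change -0.56, edgeR adjusted p = 0.280), all HS hearts below. Mcl1, a survival factor of the BCL2 family, had a log2 fold change of 0.43, and Vegfa, the vascular growth factor, of -0.38 (edgeR adjusted p = 0.346 and 0.345). For Mcl1 and Vegfa the groups overlapped. Cebpd had 4.01, 4.27 and 19.5 CPM in HS hearts 1 to 3, against 2.87, 2.48 and 3.82 CPM in sham hearts 1 to 3. Its log2 fold change was 1.58 (edgeR adjusted p = 0.367). Among the 21 tested, HS hearts lay all above for 2 (Fos and Cebpd) and all below for 1 (Ccnd1). Over all genes this held for 11% and 10.9%.

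Around Il1r1, 10 of 15 genes of the IL-1 family and its receptor complex were tested, with 0 called by edgeR at an adjusted p under 0.05 and 2 at an unadjusted p under 0.05, both higher in HS hearts, beside 8.83% of all genes. Traf6, the ubiquitin ligase that carries the signal from IL-1 receptors to NF-kappaB, had 15.2, 18.1 and 18.9 CPM in HS hearts 1 to 3, against 13.2, 13.4 and 10.6 CPM in sham hearts 1 to 3 (log2 fold change 0.49, edgeR adjusted p = 0.284). Irak3, an inhibitor of that route, had 3.93, 3.44 and 6.66 CPM in HS hearts 1 to 3, against 3.11, 2.43 and 2.53 CPM in sham hearts 1 to 3 (log2 fold change 0.79, edgeR adjusted p = 0.319). All HS hearts were above all sham hearts for Traf6, Irak3 and Irak4, as for 11% of all genes. Irak2 had 6.32, 6.91 and 11.6 CPM in HS hearts 1 to 3, against 6.18, 6.51 and 6.23 CPM in sham hearts 1 to 3, and its log2 fold change was 0.39 with all hearts and 0.07 without HS heart 3. Il33 had a log2 fold change of 0.62, and of -0.61 with HS heart 2 as the only HS heart. Il1b had 11, 19 and 23 counts in HS hearts 1 to 3, against 32, 3 and 5 counts in sham hearts 1 to 3, and sham heart 1 was the highest of the 6.

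**Figure D5:**
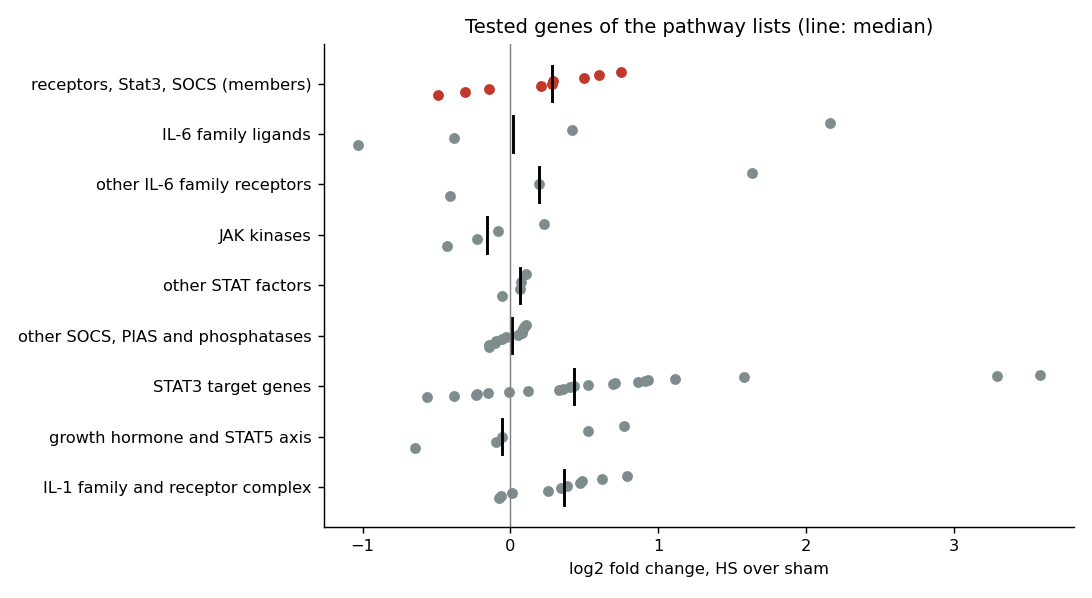
Log2 fold change of HS over sham hearts (horizontal axis, log2 units) of every tested gene in the member list (top row) and in 8 further lists of the pathway, with a vertical line at each median. The members have a median of 0.28, the STAT3 targets 0.43 (with HS heart 3 the farthest from the sham mean in both lists) and the other SOCS, PIAS and phosphatase genes 0.01.

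The genes whose pattern over the 6 hearts was most like that of Socs3 were found by the mean absolute difference of log2 CPM after subtracting the sham mean, among 11495 genes. They were Junb, Npas2, Bmal1, Rcan1 and Icam1, with differences of 0.18 to 0.20. Each had HS heart 3 above HS heart 1, and sham heart 1 as the highest and sham heart 3 as the lowest sham heart. This order follows from the choice by likeness to Socs3 and is not a separate result. Those most like Cish were Zfp526, Lcp2, Gm14410, Slc26a10 and Lbh, with differences of 0.20 to 0.24. For all of these HS heart 3 was the lowest heart, from -1.02 for Gm14410 to -1.96 for Slc26a10 on the log2 scale. This too follows from the choice, and HS heart 3 was the lowest heart for 32.1% of all tested genes.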

How the data were processed

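RNA of 3 HS and 3 sham mouse hearts was sequenced from strand-specific poly(A) libraries. Reads were cleaned (fastp) and aligned (Hisat2) by the authors, whose deposited values are estimated counts for each transcript without scaling for depth (30.3% not whole). The genome build is mm10 per the submitters' processing notes. How reads were divided among transcripts, with which annotation and whether by strand, is not given in the sources used here. In the labels, the extraction text speaks of cell lines while the tissue is heart.

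Columns were matched to hearts by title. Counts of 149132 transcripts were summed per gene and rounded. Of 27685 genes with counts, 14717 passed filterByExpr (minimum 10, total 15). TMM factors ran from 0.892 to 1.07. Main tests were edgeR 4.0.16 quasi-likelihood (robust, group only) with Benjamini-Hochberg adjustment over all tested genes or transcripts. The biological coefficient of variation was 0.204 for genes and 0.443 for transcripts. Log2 CPM used a prior count of 2. Limits from counts cover counting error only. Positions are from GENCODE vM21 on GRCm38 (mm10). Alternatives were other scalings and filters, DESeq2 1.42.0, limma-voom (limma 3.58.1), a replicate block and leaving out hearts. Transcript alternatives were added after seeing the data. The gene-level steps were run on simulated counts with the same biological coefficient of variation for every gene and no outlying heart. This does not show how they behave on these hearts. R 4.3.3, Python 3.11.15 and matplotlib 3.10.9 were used.

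The members and lists were chosen with earlier results of these data known. All members were named, with up to 4 genes of the smallest unadjusted p per list, all ligands by counts, and the 5 genes most like Socs3 and Cish. Some genes of the lists are not reported here. Other genes were named after their values were seen.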

Additional observations from a re-analysis of the deposited data

How the results depend on the processing

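With edgeR, 9 genes were called at an adjusted p under 0.05. This became 16 with library size only, 84 without a filter, 4 with at least 10 counts in every heart, 351 with DESeq2, 129 without HS hearts 1 and 3 and 2 to 287 leaving out each heart in turn. The 572 genes past the study's thresholds became 1112 without a filter, 357 with at least 10 counts in every heart, 361 without HS hearts 1 and 3 and 401 to 1072 leaving out each heart. The 7 transcripts called became 4 with upper quartile scaling, 92 without a filter, 11 with at least 10 counts in every heart, 624 with DESeq2, 3 with limma-voom, 0 with the replicate block and 0 to 9 leaving out each heart. No member was called at an adjusted p under 0.05 or passed the study's thresholds under any of these alternatives, and the lowest adjusted p of a member was 0.159 (Il1r1 without HS heart 2). Members at an unadjusted p under 0.05 numbered 0 in the main comparison. They came to 1 with library size only and with DESeq2 (Il1r1) and 1 with at least 10 counts in every heart (Il6st). With the replicate block there was 1 (Socs2), and leaving out each heart gave 0 to 3. The share of all genes at this threshold, 13.6% in the main comparison, was not counted under these alternatives.

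Of 135 log2 fold changes of members under alternatives, 128 kept the sign and the side of the threshold and 7 changed sign. These were Socs3 (-0.0040 without HS heart 3, -0.012 without sham heart 3), Il6ra and Osmr (-0.057 and -0.20 without HS heart 3, -0.13 and -0.29 without HS hearts 1 and 3) and Lifr (-0.017 without HS hearts 1 and 3). Leaving out each heart, Socs3 ran from -0.012 to 0.87, Il6ra from -0.057 to 1.04 and Osmr from -0.20 to 0.77. Among the other pathway genes, Stat2 changed sign with library size only (-0.0043). Without HS hearts 1 and 3, sign changed for Cntfr (-0.96), Il11ra1 (-0.11), Jak1 (0.070), Stat5a (0.16), Stat2 (-0.10), Igf1 (-0.051), Igfbp3 (-0.36), Ghr (0.029) and Il33 (-0.61). Leaving out each heart, ranges that crossed 0 were Stat5b -0.063 to 0.20, Il11ra1 -0.036 to 0.32, Stat5a -0.30 to 0.25, Stat2 -0.24 to 0.25, Igfbp3 -0.31 to 1.11, Ghr -0.18 to 0.033, Socs2-201 -0.38 to 0.078 and Stat3-203 -0.17 to 0.0040. Fos had an adjusted p of 0.00436 with DESeq2. The causes were not tested.

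Hearts of the same number deviated together with correlations of -0.06, 0.13 and 0.01 across genes, so the numbers were not taken as pairs. With the replicate block, Socs2 had a log2 fold change of -0.32 (edgeR unadjusted p = 0.0299, adjusted p = 0.411). Without HS hearts 1 and 3 the spread of the lone HS heart is taken from the sham hearts. Genes at a few counts, such as Socs1 and most ligands, cannot be compared at this depth, and transcript counts depend on how shared reads were divided.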
